A study of Mus musculus with 8 samples.

Results

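IGHV1-62-2 and IGHV1-71 are heavy-chain V genes of the mouse immunoglobulin locus, and the cells that carried them were studied here in single-cell B-cell receptor libraries. A cell was included when its barcode held exactly 1 heavy and 1 light chain and the heavy chain was called as IGHV1-62-2 or IGHV1-71. These were 2092 of 40603 paired cells, or 5.15%: 1139 with IGHV1-62-2 and 953 with IGHV1-71. The receptors came from spleen germinal-centre B cells that were enriched with PNA beads and then sorted, 10 days after immunization, from Dtx1+/+ (WT) and Dtx1-/- (KO) mice, with 4 libraries of each genotype. Dtx1 encodes Deltex-1, an E3 ubiquitin ligase known for its part in Notch signalling. The WT libraries held 1249 of the cells and the KO libraries 843, with 189 to 329 in each library. The 2 genes and the light gene IGKV2-137 were chosen with the use of these genes and their pairing already known from the same files, so both are given below as descriptions and without a test.

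An antibody's binding site is formed by a heavy and a light chain. The last complementarity-determining region of the heavy chain (CDR3) is made where a V, a D and a J gene are joined, with bases trimmed and added at the joints, so that cells of separate origin rarely share it. In a germinal centre, B cells that recognise the antigen divide, accumulate point mutations in their V regions and may switch from IgM to another class. Cells descended from one founder form a clone. Receptors of separate clones that use the same V genes and nearly the same CDR3 are called convergent.

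Over the listed V regions, framework 1 to framework 3, the 2 genes could not be told apart. Their most frequent sequences over clones were identical across 285 bases, carried by 127 of 231 IGHV1-62-2 clones and 129 of 240 IGHV1-71 clones. This shared sequence is shown because it is the reference for every mutation counted below, and capitals mark CDR1 and CDR2.
IGHV1-62-2 and IGHV1-71, V region: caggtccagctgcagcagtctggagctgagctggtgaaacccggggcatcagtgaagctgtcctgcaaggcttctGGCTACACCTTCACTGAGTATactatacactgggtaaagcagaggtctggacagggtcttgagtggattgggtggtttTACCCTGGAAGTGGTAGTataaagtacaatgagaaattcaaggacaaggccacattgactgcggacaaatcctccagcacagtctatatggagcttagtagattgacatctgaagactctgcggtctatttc

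RefSeq's GRCm38.p6 (mm10) annotation places both genes on chromosome 12 as V segments, IGHV1-62-2 at 115446417 to 115446710 and IGHV1-71 at 115742205 to 115742506. Their starts lie 295788 bases apart. IGKV2-137 lies on chromosome 6 at 67555636 to 67556216. Of 13 listed neighbours in the locus, 8 were found in paired cells. IGHV1-64, between the 2 genes, had 516 WT and 667 KO cells, and IGHV1-72, beyond IGHV1-71, had 372 and 815. Because the listed regions of the 2 genes are identical, they could not be used to check a cell's assignment to one gene or the other. Of 201 receptors found in 2 or more cells, 4 were called as both genes, and they held 110 cells. Values for each gene alone carry this uncertainty. For both genes together, counts of cells do not carry it. Values that depend on clones do, because clones were defined within each gene.

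Per the files, libraries held 4585 to 5712 paired cells, 754954 to 1155339 UMIs and 32395632 to 47934592 reads. The labels and the design text do not give the number of mice. Libraries of one genotype shared receptors: any 2 of them had 41 to 56 receptors of these genes in common (12 pairs), against 0 to 2 for libraries of different genotypes (16 pairs). The 4 libraries of a genotype were therefore read as 4 loadings of 1 pool of cells. Each p-value between genotypes compares 1 WT pool with 1 KO pool, with the variation among loadings as its only error. Sign-flip tests over the 8 libraries likewise rest on 1 pool of each genotype, so libraries that agree there are loadings and not independent replicates. Libraries of one genotype also shared 28 to 54 cell barcodes and libraries of different genotypes 29 to 46, and 2 barcodes of these cells occurred in 2 libraries. The cells of KO libraries had more heavy-chain UMIs, with library medians of 51 to 57.5 against 31 to 34 in WT.

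WT replicate 2 stood apart. It had 54 cells with a light chain other than IGKV2-137, against 23 to 32 in the other WT libraries. Of these 54, 26 had under 5 heavy-chain UMIs, and 15 had a heavy CDR3 that was also found with IGKV2-137. Their median was 6 UMIs, against 36 in the IGKV2-137 cells of that library. Pairing values are therefore given with and without WT replicate 2 and with the cells of under 5 UMIs left out. The files hold receptor contigs and no other transcripts, so the germinal-centre label could not be set against marker genes. IGHD, the constant gene of naive cells' IgD, was found in 1 of these cells. Unmutated IgM cells in clones of 1 made up 4.64% of the WT and 9.96% of the KO cells, and 1 WT and 4 KO cells had over 10 times their library's median UMIs. Their part in the results was not tested.

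Use of both genes was lower in KO. IGHV1-62-2 made up 3.49%, 4.04%, 4.35% and 3.75% of paired cells in WT replicates 1 to 4 and 1.95%, 1.70%, 1.95% and 1.88% in KO replicates 1 to 4. The means were 3.91% ± 0.37 and 1.87% ± 0.12 (SD, n = 4 libraries each), and the groups did not overlap. IGHV1-71 made up 2.79%, 2.62%, 2.77% and 2.92% in WT and 1.75%, 2.19%, 2.11% and 1.86% in KO, or 2.77% ± 0.12 and 1.98% ± 0.21 (SD, n = 4), again without overlap. Such separation was common among heavy V genes, as 36 of 69 genes tested did not overlap between the groups (52.2%), 15 of them lower in KO (21.7%).

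On the log2 scale, the difference (KO over WT) was -1.06 with a standard error of 0.09 for IGHV1-62-2 and -0.48 with a standard error of 0.09 for IGHV1-71. These values come from edgeR's quasi-likelihood model over all IGHV genes, with paired cells as the library size. As background, the model called 41 of 69 genes (59.4%) at an adjusted p under 0.05, 16 of them lower in KO (23.2%); no call is drawn for IGHV1-62-2 or IGHV1-71. Counting every clone a single time, it called 20 of 63 genes, and the differences of IGHV1-62-2 and IGHV1-71 were -0.78 and -0.69. With TMM factors, which moved the median log2 difference of all genes from 0.16 to -0.03, 20 of 37 called genes were lower in KO and 17 higher, against 16 lower and 25 higher without them. IGHV1-62-2 and IGHV1-71 then stood at -1.25 and -0.67. Fewer cells of these genes and a smaller share of a larger pool of cells cannot be told apart.

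**Figure D1:**
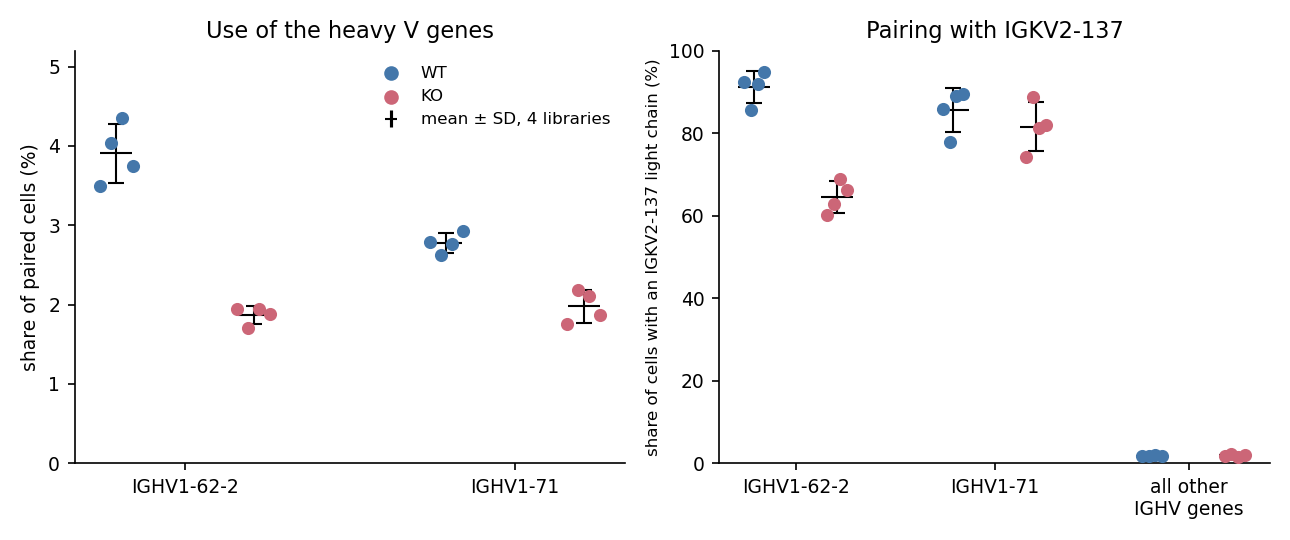
Left, the share of paired cells (%) with IGHV1-62-2 or IGHV1-71 in each library. Right, the share of cells (%) of each heavy gene that had an IGKV2-137 light chain. Points are libraries, WT in blue and KO in red, and black bars are the mean ± SD of 4 libraries. IGHV1-62-2 use was 3.91% in WT and 1.87% in KO, and its pairing with IGKV2-137 was 91.2% in WT and 64.5% in KO, while the libraries' values for all other IGHV genes lay between 1.47% and 2.11%.

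Most of these cells had the same light V gene. IGKV2-137, a kappa V gene, was found in 1730 of the 2092 cells. Its share was 89.5%, 82.6%, 90.9% and 92.5% in WT replicates 1 to 4 and 66.8%, 77.5%, 75.3% and 74.1% in KO replicates 1 to 4. The means were 88.9% ± 4.4 and 73.4% ± 4.6 (SD, n = 4), with no overlap. Without WT replicate 2 the WT mean was 90.9% ± 1.5 (SD, n = 3), and over cells of 5 or more UMIs the means were 92.4% ± 1.6 and 74.9% ± 3.5 (SD, n = 4). Among the cells of all other IGHV genes, IGKV2-137 made up 1.83% ± 0.10 in WT and 1.86% ± 0.30 in KO (SD, n = 4).

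No other heavy gene came near this. Over the 8 libraries combined, of 66 IGHV genes with 100 or more paired cells, IGHV1-71 had 84.1% of its cells with IGKV2-137 and IGHV1-62-2 had 81.6%. The next was IGHV1-77 with 7.60%, and the median of the other genes was 0.955%. Within the WT pool alone, IGHV1-22 had 15.3% of its cells with IGKV2-137, 19 of these 20 cells in 1 clone. Read from the light chain, cells of IGHV1-62-2 or IGHV1-71 made up 76.6% to 78.8% of all IGKV2-137 cells in WT libraries and 58.1% to 68.4% in KO libraries. The heavy gene next in number with IGKV2-137 was IGHV1-81 in WT (126 cells) and IGHV1-53 in KO (40 cells).

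**Figure D2:**
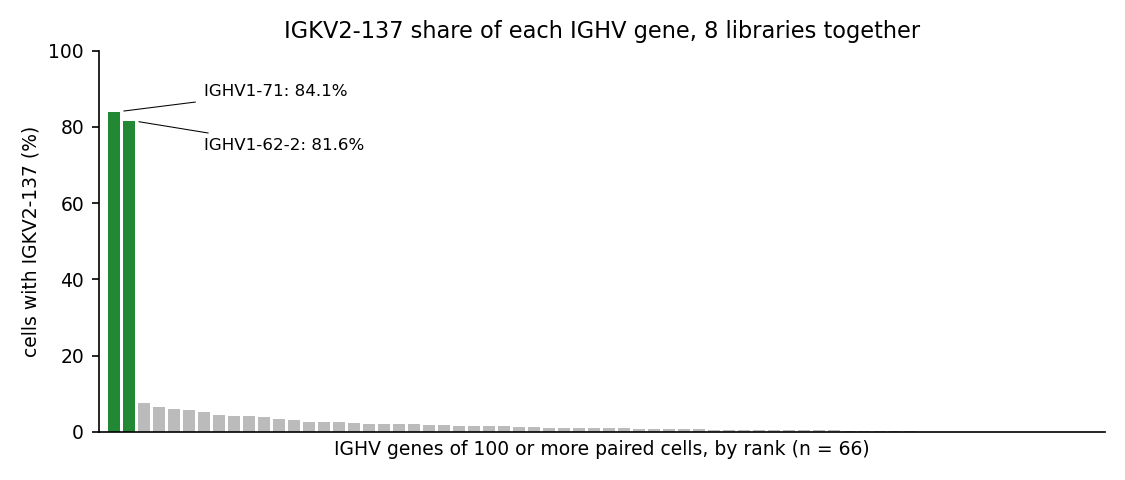
The share of cells (%) with an IGKV2-137 light chain for each of 66 IGHV genes of 100 or more paired cells over the 8 libraries, ordered by rank. IGHV1-71 at 84.1% and IGHV1-62-2 at 81.6%, in green, stand above all others, in grey, the next of which is at 7.60%.

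The pairing was present in many clones. Clones were defined by shared heavy and light V and J genes, equal heavy CDR3 length and linked CDR3 sequences at 0.85 nucleotide identity. IGKV2-137 was the partner in 152 of 253 WT clones (60.1%) and in 115 of 218 KO clones (52.8%). At 0.95 identity its share was 72.1% of 366 WT and 61.4% of 267 KO clones. Barcodes with 2 or more light chains, which lie outside the selection, also held it: 122 of 160 (76.3%).

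Given for each heavy gene, the pairing share was lower in KO for IGHV1-62-2 and overlapped between genotypes for IGHV1-71. For IGHV1-62-2, IGKV2-137 was the partner in 92.3%, 85.6%, 92.0% and 94.8% of cells in WT replicates 1 to 4 and in 60.2%, 62.9%, 68.8% and 66.3% in KO replicates 1 to 4. For IGHV1-71 the values were 85.9%, 77.9%, 89.1% and 89.6% in WT and 74.2%, 88.8%, 81.4% and 81.9% in KO. One KO clone held 57 of the 409 IGHV1-62-2 cells, with the kappa gene IGKV6-15. Without it, 75.0% of the remaining 352 KO IGHV1-62-2 cells had IGKV2-137.

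The other partners were spread over many genes, 47 light V genes in WT and 45 in KO with IGKV2-137 included. IGKV6-15 had 4 WT and 60 KO cells, IGKV2-109 had 3 and 30, and IGKV6-23 had 8 and 22. IGKV10-96 had 16 WT and 10 KO cells, and IGLV1, the leading lambda gene of the mouse, 17 and 2. IGKV14-111 (4 and 8), IGKV4-72 (7 and 3), IGKV10-94 (6 and 4) and IGKV6-13 (7 and 3) followed, and all 7 WT cells of IGKV6-13 were in WT replicate 2. In edgeR's quasi-likelihood test over light V genes within these cells, 2 of 59 genes passed the filter on low counts and 2 of 2 were called (100%). One of the 2 is IGKV2-137, whose pairing was known at the choice, so nothing is read from that count; its log2 difference was -0.27 and, with TMM factors, -0.02. A fit on 2 genes also supports its error estimate poorly, and IGKV6-15 is therefore given by its log2 difference of 4.28 alone, with 57 of its 60 KO cells in the 1 clone named above. Without the filter, 5 of 59 genes (8.47%) were called, IGKV2-137 again among them. The other 4, IGKV6-15, IGKV2-109, IGKV6-23 and IGKV5-39, were higher in KO by cells. In KO, the largest clone of each light gene held 21 of 22 IGKV6-23 cells, 5 of 6 IGKV5-39 cells and 13 of 30 IGKV2-109 cells. IGKV6-23 was in 2 KO and 5 WT clones, IGKV2-109 in 11 and 3. With each clone counted once, 1 gene passed the filter, IGKV2-137, and edgeR called 0 genes at an adjusted p under 0.05 and 0 at an unadjusted one. The other 4 genes were thus not tested by clone.

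The IGKV2-137 chain was itself uniform. Its CDR3 read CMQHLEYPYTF in 91.1% of the 1110 WT and 83.1% of the 620 KO cells, and the J gene was IGKJ2 in 95.9% and 86.9%. In IGKV2-137 cells of other IGHV genes, the same CDR3 was found in 54.7% (WT) and 59.6% (KO) and IGKJ2 in 62.2% and 66.2%. One nucleotide sequence accounted for 1359 of the 1730 light CDR3s. It is shown with the next in number, found in 156 cells, which encodes the same residues.
IGKV2-137 CDR3, 1359 cells: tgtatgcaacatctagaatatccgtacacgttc
IGKV2-137 CDR3, 156 cells: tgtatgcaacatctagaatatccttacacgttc

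The heavy CDR3 also began alike. The first 13 bases, tgtgcaagacacg, were present in 84.0% of IGHV1-62-2 clones and 84.2% of IGHV1-71 clones. They encode cysteine, alanine, arginine and histidine. These bases lie within the most common V end, which both genes share, so the alike start is not read as convergence. Histidine stood at residue 4, counted from the cysteine, in 85.8% of WT and 92.8% of KO cells, against 0.933% and 0.959% in cells of other IGHV1 genes. It was followed by glutamate in 45.9% of WT and 59.4% of KO cells and by glycine in 35.5% and 23.1%. Some clones lacked the histidine, among them the most frequent receptor of the WT pool.

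J gene use leaned on IGHJ3. IGHJ3 was found in 58.0% of WT and 65.7% of KO cells, IGHJ2 in 24.1% and 16.01%, IGHJ4 in 11.8% and 10.4% and IGHJ1 in 6.16% and 7.83%. In other IGHV1 genes IGHJ3 made up 29.1% and 24.4% of cells. Counted by clones, IGHJ3 made up 51.8% of WT and 52.3% of KO clones of IGHV1-62-2 or IGHV1-71. A D gene was named in few cells, and none was given for 83.7% of WT and 79.7% of KO cells. The named ones were led by IGHD4-1 (81 WT and 14 KO cells) and IGHD1-1 (33 and 42), then IGHD2-4 (8 and 56), IGHD2-3 (33 and 21) and IGHD3-2 (20 and 15).

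For joints with IGHJ3, the residue before the closing phenylalanine, alanine, tyrosine and tryptophan was compared by light partner. In IGKV2-137 cells with IGHJ3 this residue was glycine in 54.4% of WT and 59.8% of KO cells, and glutamate in 21.4% and 27.4%. It was tryptophan in 0 of 667 WT cells and in 2.84% of KO cells. The 0 allows a share of up to 0.45% if cells are taken as independent. The 667 cells fell in 88 clones, so the limit by clone is wider. In other IGHV1 cells with IGHJ3, tryptophan stood there in 33.2% (WT) and 41.8% (KO), glycine in 17.3% and 20.3% and glutamate in 0.611% and 1.39%. Cells of IGHV1-62-2 or IGHV1-71 with another light chain had tryptophan in 35.1% of 57 WT and 6.11% of 131 KO cells, and these 131 include the 57-cell IGKV6-15 clone, whose CDR3 does not close with those 4 residues. By clone, tryptophan stood there in 0 of 88 WT and 3 of 68 KO clones with IGKV2-137 and in 25.6% of 43 WT and 15.2% of 46 KO clones with another light chain. Glycine and glutamate were close between partners in WT clones (34.1% against 30.2%, and 23.9% against 23.3%). In KO clones they stood at 39.7% against 10.9% and 32.4% against 6.52%. These features were chosen after their values were seen and are descriptions. The 57 WT cells are few, and they include the low-UMI cells of WT replicate 2.

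IGKV2-137 went with a shorter heavy CDR3. In WT replicates 1 to 4, its mean length in nucleotides was 41.5, 41.6, 41.5 and 41.7 with IGKV2-137 and 48.2, 46.6, 45.1 and 48.5 with another light chain. In KO replicates 1 to 4 the means were 42.8, 41.7, 43.0 and 42.5 against 47.0, 47.5, 47.9 and 47.6. It was shorter with IGKV2-137 in 8 of 8 libraries, with a difference of -5.24 nucleotides on average. The exact sign-flip permutation test over 8 libraries gave p = 0.0078, the smallest it can give, and 0.0156 after Benjamini-Hochberg adjustment over 6 such comparisons. Within each genotype the exact sign-flip permutation test gave p = 0.125, the smallest that 4 libraries allow. With each clone counted once within its library the difference was -4.15 nucleotides. A clone found in several loadings still counts in each of them there. Over clones of a whole pool, the mean length was 14.4 residues with IGKV2-137 and 15.2 with another light chain in WT. In KO it was 14.6 against 15.8 residues. By residues, 12 was the most common length in IGKV2-137 clones, at 21.7% of clones in either pool. Among clones with another light chain, 26.7% of the WT ones had 17 residues and 20.8% had 12. In KO, 12.6% of such clones had 17 residues, against 14.8% with IGKV2-137, and 11.7% had 12.

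**Figure D3:**
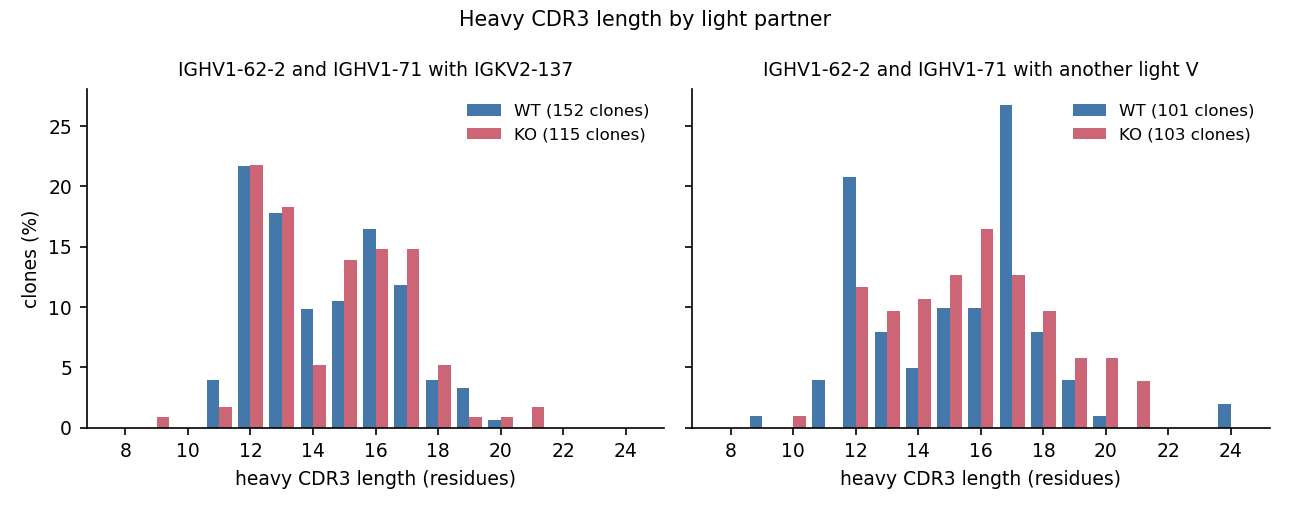
The share of clones (%) by heavy CDR3 length in residues, for clones of IGHV1-62-2 or IGHV1-71 with IGKV2-137 (left) and with another light V gene (right), WT in blue and KO in red. Lengths of 12 and 13 residues lead with IGKV2-137. With other partners the highest WT bar is at 17 residues, followed by 12, and the highest KO bar is at 16.

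Some heavy CDR3s recurred across clones or in both pools. Clones are split by heavy and light gene call, so recurrence across clones does not by itself show separate joints. Of 369 distinct CDR3 amino-acid sequences in WT and 268 in KO, 17 were found in both pools (4.61% of the WT and 6.34% of the KO ones), and 15 of these were found in both with IGKV2-137. These 17 accounted for 21.0% of the WT and 9.61% of the KO cells. Among all other IGHV genes, 3.09% of the WT and 2.38% of the KO CDR3s were in both pools, with 6.36% of WT and 6.00% of KO cells. None of the 17 occurred in a cell of another IGHV gene. All 17 begin with CARH, and histidine at residue 4 was rare in other IGHV1 genes (0.933% of WT and 0.959% of KO cells). Their absence from other genes is thus largely set by the V gene, and nothing is read from it. Of the 17, 14 had no heavy nucleotide sequence in common between the pools and 3 had one. There were 3 receptors with the same gene calls and both nucleotide CDR3s identical between pools, and none of the 3 shared a barcode. The leading examples are shown, with the bases that match the most common V end or J end in lower case and those between them in capitals.
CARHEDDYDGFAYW, 59 WT and 4 KO cells: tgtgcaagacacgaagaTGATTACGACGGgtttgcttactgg
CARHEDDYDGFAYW, 7 WT cells: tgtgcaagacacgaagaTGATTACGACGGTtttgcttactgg
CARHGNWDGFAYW, 42 WT cells: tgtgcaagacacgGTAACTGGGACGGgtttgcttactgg
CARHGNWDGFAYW, 7 KO cells: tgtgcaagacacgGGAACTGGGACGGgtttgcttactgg
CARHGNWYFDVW, 17 WT and 3 KO cells: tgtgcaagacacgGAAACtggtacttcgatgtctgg
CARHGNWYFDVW, 18 WT cells: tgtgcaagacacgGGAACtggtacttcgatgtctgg
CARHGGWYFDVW, 6 WT cells: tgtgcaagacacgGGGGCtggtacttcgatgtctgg
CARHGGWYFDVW, 2 KO cells: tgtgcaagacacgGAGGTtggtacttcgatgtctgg
15-residue CDR3, 64 WT cells: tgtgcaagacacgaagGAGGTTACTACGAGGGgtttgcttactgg
15-residue CDR3, 23 KO cells: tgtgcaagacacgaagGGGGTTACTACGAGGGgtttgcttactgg

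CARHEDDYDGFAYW, with IGHJ3, was found in 66 WT and 4 KO cells, all 70 with IGKV2-137. Its most frequent receptor had 57 WT cells and 1 KO cell under the call IGHV1-62-2 and 2 WT and 3 KO cells under IGHV1-71, with both chains identical. The 15-residue CDR3, also with IGHJ3 and in all 88 cells with IGKV2-137, was spelled 1 way in 64 WT cells and 2 other ways in 24 KO cells, and it was present in all 8 libraries. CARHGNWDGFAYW had 42 WT and 7 KO cells, all 49 with IGKV2-137 and none with a V mutation. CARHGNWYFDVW, with IGHJ1, had 35 WT and 3 KO cells, again all with IGKV2-137.

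Other recurrent sequences differed in how many joints they were built from. Clones with different heavy or light gene calls are counted apart here. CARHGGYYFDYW, with IGHJ2, was found in 7 clones with 7 nucleotide versions among 17 cells, 15 of them with IGKV2-137. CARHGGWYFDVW came in 6 clones with 5 light V genes but 2 heavy nucleotide versions, 1 in WT and 1 in KO, and 6 of its 8 cells were class-switched. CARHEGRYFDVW had 5 clones with 3 versions, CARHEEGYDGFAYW 4 with 3 and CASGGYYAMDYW 4 with 2. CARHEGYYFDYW, in 4 clones with 3 versions, was found in 49 KO cells and in no WT cell of these genes.

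Each pool was led by a few receptors that were spread over its 4 loadings. The sequences of 3 of them are shown, a WT CDR3 without the histidine, the KO clone with another light gene and the next largest KO receptor, with capitals as above.
WT, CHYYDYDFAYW with IGKV2-137, 67 cells: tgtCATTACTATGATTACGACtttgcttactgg
KO, 16-residue CDR3 with IGKV6-15, 57 cells: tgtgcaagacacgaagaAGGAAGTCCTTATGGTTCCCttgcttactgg
KO, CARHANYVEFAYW, 40 cells with IGKV2-137 and 1 with IGKV10-94: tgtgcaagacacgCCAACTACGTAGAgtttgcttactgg

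The WT receptor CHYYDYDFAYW was found in 17, 17, 18 and 15 cells of WT replicates 1 to 4, as 1 nucleotide sequence, and all 67 cells were IgM-class and without a V mutation. The IGKV6-15 receptor of KO was found in 17, 16, 13 and 11 cells of KO replicates 1 to 4, likewise unmutated and unswitched. The largest WT clone at 0.85 identity, with IGHJ2, held 108 cells (29, 27, 28 and 24 by replicate), but it joined 23 distinct nucleotide CDR3s, of which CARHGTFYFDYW led with 55 cells. The next, with IGHJ3, held 82 cells, 64 of them with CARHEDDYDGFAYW. The largest KO clone, with IGHJ3 and IGKV2-137, held 88 cells (19, 23, 24 and 22) with 17 nucleotide CDR3s, led by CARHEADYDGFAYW in 31 cells. Among them was also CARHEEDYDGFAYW, in 30 cells. The clone rule therefore linked several distinct joints. WT had 253 clones at 0.85 identity, 366 at 0.95 and 455 receptors when both chains had to be identical, and KO had 218, 267 and 310.

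Cells with IGKV2-137 were more often in a clone of 2 or more cells within their library. The share was 84.6%, 81.3%, 83.6% and 80.2% in WT replicates 1 to 4 and 70.8%, 81.4%, 78.9% and 77.1% in KO. With another light chain it was 31.3%, 12.96%, 20% and 39.1% in WT and 48.5%, 64.0%, 51.8% and 46.9% in KO. The share was higher with IGKV2-137 in 8 of 8 libraries, by 40.4 percentage points on average. At 0.95 identity the difference was 30.1 points and with 5 or more UMIs 33.8 points. The clone rule requires a shared light V gene, which favours cells that all have IGKV2-137 over cells spread across many light genes. No test is therefore read for this difference, and the part of the rule in it was not tested. Between the genotypes, 75.8% ± 4.4 of WT and 70.6% ± 5.9 of KO cells were in such clones (SD, n = 4, exact permutation test, p = 0.229), and the groups overlapped.

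IgM was the class of nearly all of these cells, 94.6% in WT and 95.5% in KO. Class-switched cells numbered 66 in WT and 38 in KO. IGHG1, the constant gene of IgG1, accounted for 35 and 30 of them, and IGHG2B for 27 and 7. IGHG2C had 1 cell in each pool and IGHG3 had 3 in WT. IGHA and IGHE were found in 0 of 1247 WT and 0 of 840 KO cells with a named class, which allows a share of up to 0.241% and 0.357%.

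The switched share was 4.29%, 6.47%, 4.86% and 5.56% in WT replicates 1 to 4 and 6.34%, 3.62%, 3.56% and 4.76% in KO. The genotypes overlapped and did not differ beyond the spread of loadings (5.30% ± 0.94 against 4.57% ± 1.30, SD, n = 4, exact permutation test, p = 0.4, adjusted 0.462). Within libraries, these cells were less often switched than cells of other IGHV1 genes in 8 of 8 libraries. The difference was -3.24 percentage points (exact sign-flip permutation test, p = 0.0078, adjusted 0.0156, and p = 0.125 within each genotype). The other IGHV1 cells stood at 8.52% ± 0.57 in WT and 7.82% ± 0.73 in KO (SD, n = 4). When restricted to 20 to 40 UMIs on the heavy chain, the difference was -1.23 points (exact permutation test, p = 0.297). The share of clones with a switched cell did not follow the share of cells in WT. It was 16.2% for these genes against 12.2% for other IGHV1 genes in WT, and 9.17% against 10.0% in KO, given without a test. IGHG1 made up 53.7% ± 13 of the switched cells in WT and 80.5% ± 13.5 in KO (SD, n = 4, exact permutation test, p = 0.0571, adjusted 0.0857). That value reached p = 0.0286 in the exact permutation test without WT replicate 1, at a difference of 32.0 points. These IGHG1 shares rest on 66 switched WT cells in 41 clones and 38 switched KO cells in 20 clones. Among other IGHV1 genes, 393 of 955 switched WT cells and 793 of 1018 switched KO cells were IGHG1. The IGHG1 share was thus higher in KO there as well. Whether the rise differs between these genes and other IGHV1 genes was not tested.

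V mutation was low in these cells and lower in KO. The share of mutated V nucleotides was 0.377%, 0.334%, 0.331% and 0.381% in WT replicates 1 to 4 and 0.265%, 0.204%, 0.286% and 0.163% in KO. The means were 0.356% ± 0.027 and 0.230% ± 0.056 (SD, n = 4), without overlap. Cells with no V mutation made up 70.1% ± 1.5 in WT and 78.4% ± 3.4 in KO, and the light V mutation was 0.148% ± 0.026 and 0.0779% ± 0.0063 (SD, n = 4). For all 3 measures the exact permutation test gave p = 0.0286, the smallest that 4 against 4 libraries allow, and 0.0536 after adjustment over 15 tests, which misses 0.05.

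Of 12 measures compared between the genotypes, 7 reached that smallest p (58.3%), and none passed after adjustment. The other 4 were median UMIs, CDR3 length, IGHJ2 and IGHJ3. The heavy CDR3 measured 42.2 ± 0.3 nucleotides (WT) against 43.8 ± 0.6 (KO). IGHJ2 stood at 24.1% ± 1.3 of WT cells against 15.99% ± 3.2 of KO cells, and IGHJ3 at 58.0% ± 2.5 against 65.6% ± 2.9 (SD, n = 4 for each). With each clone counted once, the IGHJ3 difference was -0.0184 points, no longer in the same direction. Heavy-chain UMIs also differed between the genotypes. Among cells of 20 to 40 UMIs the V mutation difference was -0.0738 points (exact permutation test, p = 0.143), and the light-chain difference turned to 0.0093. V mutation with each clone counted once differed by -0.292 points (exact permutation test, p = 0.0286). Leaving out WT replicate 1 or WT replicate 4 gave V mutation differences of -0.119 and -0.118 at p = 0.0571 in the exact permutation test. CDR3 length likewise stood at p = 0.0571 in the exact permutation test without any one of the 4 WT replicates, and the IGHJ3 share did so without WT replicate 1 or 2 or KO replicate 1, 2 or 3.

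The genotype difference in V mutation was compared with that in the remaining heavy genes. Cells of all other IGHV genes had 0.437% ± 0.014 in WT and 0.222% ± 0.015 in KO (SD, n = 4). Cells of IGHV1-62-2 or IGHV1-71 differed from them by -0.0817 points in WT and 0.0073 points in KO. The difference of differences was 0.089 points (exact permutation test, p = 0.0286, adjusted 0.0536). It reversed to -0.0082 with each clone counted once (exact permutation test, p = 0.771), and it stood at p = 0.0571 in the exact permutation test without any one WT replicate. For the switched share the difference of differences was 0.106 points (exact permutation test, p = 0.771).

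**Figure D4:**
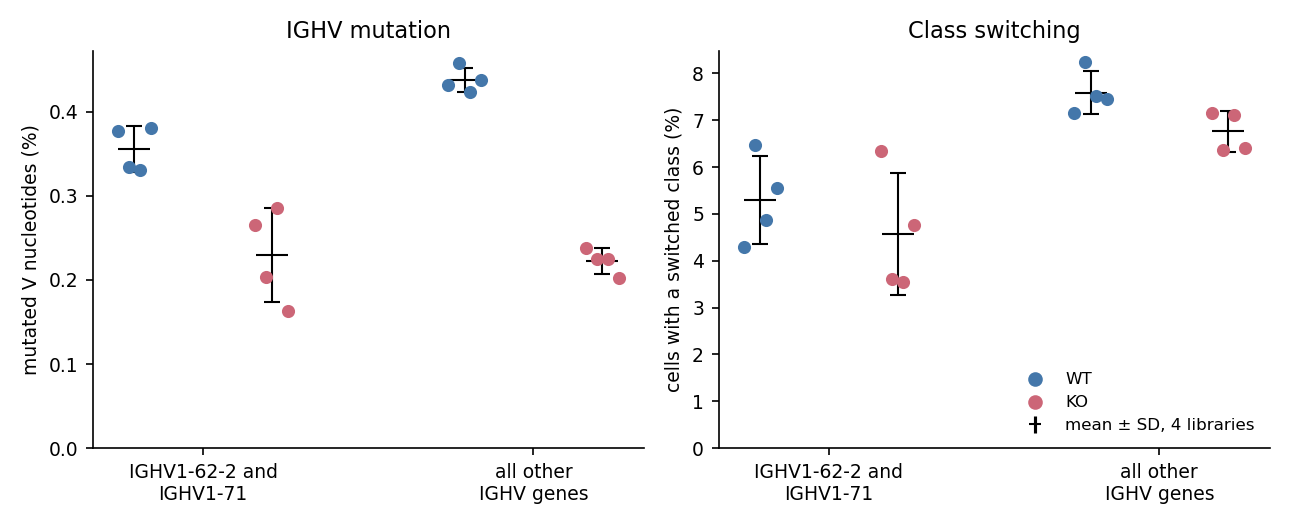
Left, mutated V nucleotides (%) and right, cells of a switched class (%), for cells of IGHV1-62-2 or IGHV1-71 and for cells of all other IGHV genes. Points are libraries, WT in blue and KO in red, and black bars are the mean ± SD of 4 libraries. Mutation of the 2 genes was 0.356% in WT and 0.230% in KO, and their switched share overlapped between the genotypes.

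Against other IGHV1 genes in the same libraries, V mutation was lower in 7 of 8 libraries, with a mean difference of -0.092 points (exact sign-flip permutation test, p = 0.0234, adjusted 0.0352). In WT it was -0.154 ± 0.039 points (SD, n = 4, exact sign-flip permutation test, p = 0.125). In KO it was -0.030 ± 0.043 points (SD, n = 4, exact sign-flip permutation test, p = 0.375), within the spread of loadings. The other IGHV1 cells had 0.510% ± 0.023 in WT and 0.260% ± 0.018 in KO (SD, n = 4). With each clone counted once the mean difference over 8 libraries was 0.000711 points (exact permutation test, p = 0.984), so the call held for cells and not for clones.

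V mutation was also compared between light partners. With IGKV2-137, V mutation was 0.326%, 0.270%, 0.310% and 0.347% in WT replicates 1 to 4, and with another light chain 0.811%, 0.637%, 0.538% and 0.793%. In KO the values were 0.271%, 0.210%, 0.263% and 0.170% against 0.253%, 0.182%, 0.357% and 0.143%. Over 8 libraries the difference was -0.193 points (exact sign-flip permutation test, p = 0.0625, adjusted 0.075), and the difference between the genotypes was not tested. Over WT cells of 5 or more UMIs, the 90 cells with another light chain had 0.464% mutated nucleotides, against 0.682% over all 139. The class-switched share differed by -3.38 points (exact sign-flip permutation test, p = 0.188).

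V mutation was higher in switched than in IgM cells in both pools, given here without a test. IgM cells had 0.304% (WT) and 0.199% (KO) mutated V nucleotides, and switched cells 1.25% and 0.849%. Of the switched cells, 6 of 66 in WT and 2 of 38 in KO had no V mutation. Mutated cells held 3.39 V mutations on average in WT and 3.04 in KO, with at most 14 and 13. By clone, 64.4% of WT and 40.8% of KO clones had at least 1 mutated cell.

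Replacements were densest in CDR1 and CDR2. Counted once per clone and codon from 1 at the start of framework 1, there were 24.9 replacements per codon in CDR1 and 19.5 in CDR2, against 12.6 in framework 2, 8.68 in framework 3 and 5.56 in framework 1. Codon 35, a histidine 3 codons after CDR1 as the files delimit it, was replaced in 63 clones, 48 WT and 15 KO. The change H35Q was found in 33 clones, H35N in 24 and H35Y in 15. In CDR2, codon 57 was replaced in 49 clones, 35 of them with S57N (22 WT and 13 KO). In CDR1, codon 31 was replaced in 43 clones, 36 of them with E31D, and it carried a silent change in 78 clones. Next came codon 56, replaced in 41 clones and led by G56D in 24, then codon 34, in 40 clones and led by I34L in 21, and codon 37, also in 40. IGKV2-137, the partner in 60.1% of all WT and 52.8% of all KO clones, was the partner in 26 of 33 clones with H35Q, 33 of 35 with S57N, 23 of 36 with E31D, 17 of 24 with G56D and 16 of 21 with I34L. The base of all clones includes unmutated clones and clones of 1 cell, so no enrichment is read from these shares. These positions were ranked by their counts and were given no test.

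**Figure D5:**
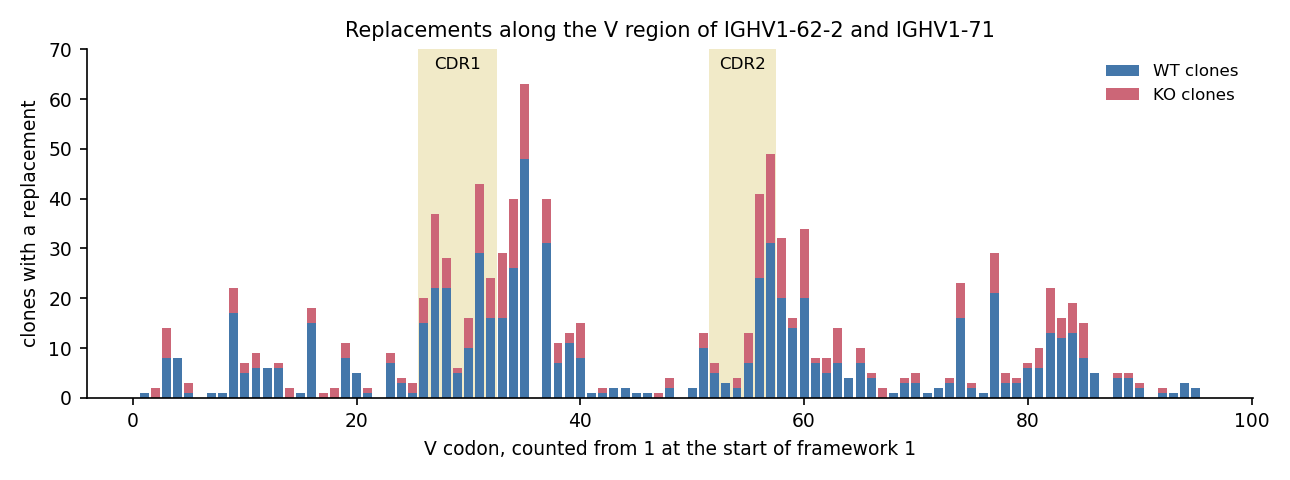
Clones of IGHV1-62-2 or IGHV1-71 with an amino-acid replacement at each V codon, counted from 1 at the start of framework 1, stacked as WT (blue) and KO (red). CDR1 and CDR2 are shaded. The highest bars are codon 35 with 63 clones and codon 57 with 49 clones.

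The light partners were also compared as profiles, in which IGKV2-137 weighs most, with 57.6% of IGHV1-62-2 and 55.8% of IGHV1-71 clones. Over 97 light V genes, the cosine between the partner profiles of IGHV1-62-2 and IGHV1-71, as shares of clones, was 0.994; this value is largely set by IGKV2-137 and is no independent likeness. In cells the other partners differed, with 61 IGKV6-15 cells for IGHV1-62-2 and 3 for IGHV1-71. Among 64 other IGHV genes of 100 or more cells, the highest cosines with the combined profile were those of IGHV1-85 (0.373), IGHV2-6-8 (0.349), IGHV6-3 (0.340), IGHV1-77 (0.318) and IGHV2-3 (0.317), and the median was 0.139. IGKV2-137 was the partner in 4.76% to 7.32% of the clones of these 5 genes.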

How the data were processed

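Single-cell B-cell receptor contigs were taken from 8 libraries, 4 WT and 4 KO. The reads and UMIs of each contig are counts deposited by the authors, and all 104649 contigs are marked as cell, high confidence, full length and productive. Per the submitters' processing notes, Cell Ranger, R 4.3.1 and mm10 were used; their settings are not stated there. The members and lists were chosen with earlier results of these data known.

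Of 2443 heavy contigs of IGHV1-62-2 or IGHV1-71, 2092 were in barcodes with 1 heavy and 1 light chain. Another 70 had no light chain, 160 had 2 or more and 121 were in barcodes with 2 or more heavy chains; these were not used. Clones shared V and J genes of both chains and heavy CDR3 length, with single linkage at 0.85 identity. The germline of a V gene was its most frequent sequence over at least 20 clones, so alleles and early mutations cannot be told apart. Library values were compared with exact two-sided permutation tests (70 assignments) or exact sign-flip tests over libraries, with Benjamini-Hochberg adjustment. Gene counts were tested with edgeR 4.0.16 (filterByExpr, paired cells or cells of these genes as library size), with DESeq2 1.42.0 as an alternative. The tests were checked on simulated data. Shares near 0 are limited by 3 cells of the total. Such limits take cells as independent, which cells of 1 clone are not, and cover counting error only.

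Named genes were the 2 heavy genes, IGKV2-137, the 10 most frequent light V genes and up to 5 others called, all J and constant genes found, the 5 most frequent D genes, the 8 CDR3s in the most clones, the 3 largest clones per pool, the locus neighbours, the 5 IGHV genes of closest partner profile and the 5 V codons replaced in the most clones. Other recurrent CDR3s and receptors named were chosen after their values were seen. Promoters and proteins of these genes were not used here.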

Additional observations from a re-analysis of the deposited data

Results flagged for a closer look

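The share of IGHJ2 among cells of IGHV1-62-2 or IGHV1-71 was 11.2% in KO replicate 1, far below the 17.2% to 17.99% of the other 3 KO libraries. It was 1 of 36 groups of 4 libraries checked for a library that stands apart, and chance gives about 1 in 20.

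The KO minus WT difference in V mutation of these cells differed from that of cells of other IGHV genes by 0.089 percentage points in the exact permutation test (p = 0.0286, adjusted 0.0536). It was -0.0082 with each clone counted once.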

How the results depend on the processing

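Of 405 alternatives over 29 results, 327 kept the direction and the side of the threshold (counts of genes, a size within 1.5 times), and 6 results did so throughout; in 44 of the 327 the value still moved by over 1.5 times. In 19 the sign turned. The causes of the changes were not tested. Restriction to 1 gene or to 20 to 40 UMIs also leaves fewer cells, and the part of this was not tested either. Percentages differ in points, KO minus WT. At 20 to 40 UMIs, V mutation differed by -0.0738 (exact permutation p = 0.143), the unmutated share by 1.44 (p = 0.6), light V mutation by 0.0093, reversed (p = 0.714), CDR3 length by 1.07 nucleotides, IGHJ2 by -7.94, IGHJ3 by -0.581, reversed, the switched share by 3.06 and IGHJ4 by 1.48, both reversed, and median UMIs by 1. With each clone counted once, CDR3 length differed by 0.851 nucleotides, IGHJ1 by 5.42 (exact permutation p = 0.0286), IGHJ2 by -5.88, and IGHJ3 by -0.0184 and IGHJ4 by 0.480, both reversed. With IGHV1-71 alone, V mutation differed by -0.154, the unmutated share by 10.5, CDR3 length by 0.18 nucleotides, IGHJ2 by -1.82, and IGHJ3 by -2.35, IGHJ4 by 3.70 and cells in clones of 2 or more by 1.81, all 3 reversed. With IGHV1-62-2 alone, the unmutated share differed by 6.13, light V mutation by -0.0661, the IGHG1 share by 33.4, cells in clones of 2 or more by -10.7 and the switched share by 0.992, reversed. The IGHG1 share also reached an exact permutation p = 0.0286 at 5 or more UMIs (25.05) and over every barcode with 1 heavy chain (31.7). Leaving out 1 library gave -0.145 to -0.104 for V mutation, 1.49 to 1.90 nucleotides for CDR3 length, 6.33 to 8.76 for IGHJ3 and 20.3 to 32.0 for IGHG1. Against other IGHV genes, the difference of differences in V mutation was -0.0082 with each clone counted once, reversed, 0.101 at 20 to 40 UMIs, 0.0614 with IGHV1-71 alone and 0.0709 to 0.104 without 1 library. For the unmutated share (-4.75 as reported, exact permutation p = 0.0571) it was 2.03 with each clone counted once, reversed, -9.15 at 20 to 40 UMIs, -5.36 at 5 or more UMIs, -5.57 over every barcode with 1 heavy chain and -5.67 to -3.87 without 1 library, and only the one without KO replicate 2 passed among the latter. For the switched share (0.106 as reported) it was -1.43 with each clone counted once and -1.66 with IGHV1-71 alone, both reversed, and -0.355 to 0.561 without 1 library, below 0 without WT replicate 1, WT replicate 3, KO replicate 1 or KO replicate 4. Within libraries, V mutation with IGKV2-137 against other partners was -0.35 with IGHV1-71 alone (exact permutation p = 0.0234), and against other IGHV1 genes it was 0.000711 with each clone counted once, reversed, and -0.0744 with IGHV1-71 alone. The switched share against other IGHV1 genes was -1.23 at 20 to 40 UMIs. edgeR called 41 heavy V genes, and 20 with each clone counted once; for light V genes it called 2, and 1 with TMM factors, 5 without the filter and 0 with each clone counted once. The share of paired cells with either gene (KO minus WT -2.83, no test) was -1.70 with each clone counted once, -2.15 at 0.95 identity, -4.22 at 20 to 40 UMIs, -2.04 for IGHV1-62-2 and -0.797 for IGHV1-71. The IGKV2-137 share (-15.4, no test) was -9.20 with each clone counted once, -9.30 at 0.95 identity, -26.6 for IGHV1-62-2, -4.03 for IGHV1-71 and -10.1 without the largest IGKV6-15 clone.

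Replicate numbers are shared between the genotypes, but same-numbered libraries' deviations correlated at -0.151 to -0.082 over 69 heavy V genes, and 0 of 8 libraries correlated best with their own number, so the numbers do not pair the libraries. With the replicate number as a block, edgeR called 41 heavy V genes and 2 light V genes. For single values a block leaves 16 patterns and a smallest exact permutation p of 0.125. Shallow cells limit the pairing values of WT replicate 2, where 30 of 310 cells had under 5 UMIs.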
